A study of Oscheius tipulae with 48 samples.

Results

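Mature adults of the nematode Oscheius tipulae were compared with young adults that had grown without passing through dauer, the arrested larval form. The 4 libraries, 2 of mature adults and 2 of young adults, were taken by the stage in their labels from a developmental series of 48 libraries. Both groups were whole worms of strain CEW1, with no genotype or treatment apart from stage. Arrested L1 larvae were placed on an OP50 bacterial lawn at 20 °C and collected as they reached each stage. The sources used here do not give the age of the adults in hours or the number of worms in a library. RNA was depleted of ribosomal RNA and sequenced, and values were RPKM, which correct the reads of each of 14558 genes for its length and the size of the library. Replicates are called biological in the titles, with nothing more on separate cultures. The p-values thus measure only how far libraries differ, and some of that may be technical. Their spread was taken over 25 libraries of 12 larval, dauer and adult groups, these 4 among them.

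Oscheius tipulae is a free-living relative of Caenorhabditis elegans whose hermaphrodites fertilise their own eggs. In C. elegans the last larval stage makes sperm, the adult gonad then turns to oocytes that are loaded with maternal transcripts, and the adult intestine makes yolk proteins for them. Older, egg-laying adults carry developing embryos in the uterus. Genes are known here by ID alone, since the files do not pair IDs with names, so markers of sperm, oocytes, yolk or intestine could not be checked by name. Groups of genes were defined instead by the stages in which they were high, without use of the 4 adult libraries except where stated. In whole worms, fewer cells of a type and less RNA per cell cannot be told apart.

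The 4 libraries did not sort by stage. Across all 14558 genes, mature adult replicate 2 and young adult replicate 2 correlated at r = 0.982 on the log2(RPKM + 1) scale, the highest of the 6 pairs among these libraries. Mature adult replicates correlated at 0.935 and young adult replicates at 0.827, the lowest of the 6 pairs. Over the 14446 genes tested, the median gene differed by 0.24 on the log2 scale between mature and young adult replicates 2. It differed by 0.51 between the mature adults and by 0.60 between the young adults. Between the young adult replicates 4536 of the genes tested (31.4%) differed by at least 1 on the log2 scale, whereas 570 (3.95%) did so between mature and young adult replicates 2. Among 12 pairs of replicates of the other larval, dauer and adult groups the correlation ranged from 0.596 to 0.989, with a median of 0.921. These correlations are over genes, which are not independent replicates, and describe libraries only. At most 0.132% of values above 1 RPKM were identical in any pair, so all 4 were kept as separate libraries.

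The number of genes at 1 RPKM or more was 8866 and 10859 in mature adult replicates 1 and 2, against 9892 and 11274 in young adult replicates 1 and 2. In each stage replicate 2 had the higher number. Values summed to 520247 and 574467 RPKM in mature adults and to 531523 and 590527 RPKM in young adults, inside the range of 371389 to 860569 RPKM over the series. The step that 1 read leaves in low values put the depth of mature adult replicate 2 at 70.9% of that of mature adult replicate 1, and young adult replicates 1 and 2 at 86.1% and 72.6% of it. The absolute depth was not read from these values. The 10 most abundant genes made up 10.7% and 6.20% of the RPKM sum in mature adults, against 5.76% and 6.38% in young adults.

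**Figure D1:**
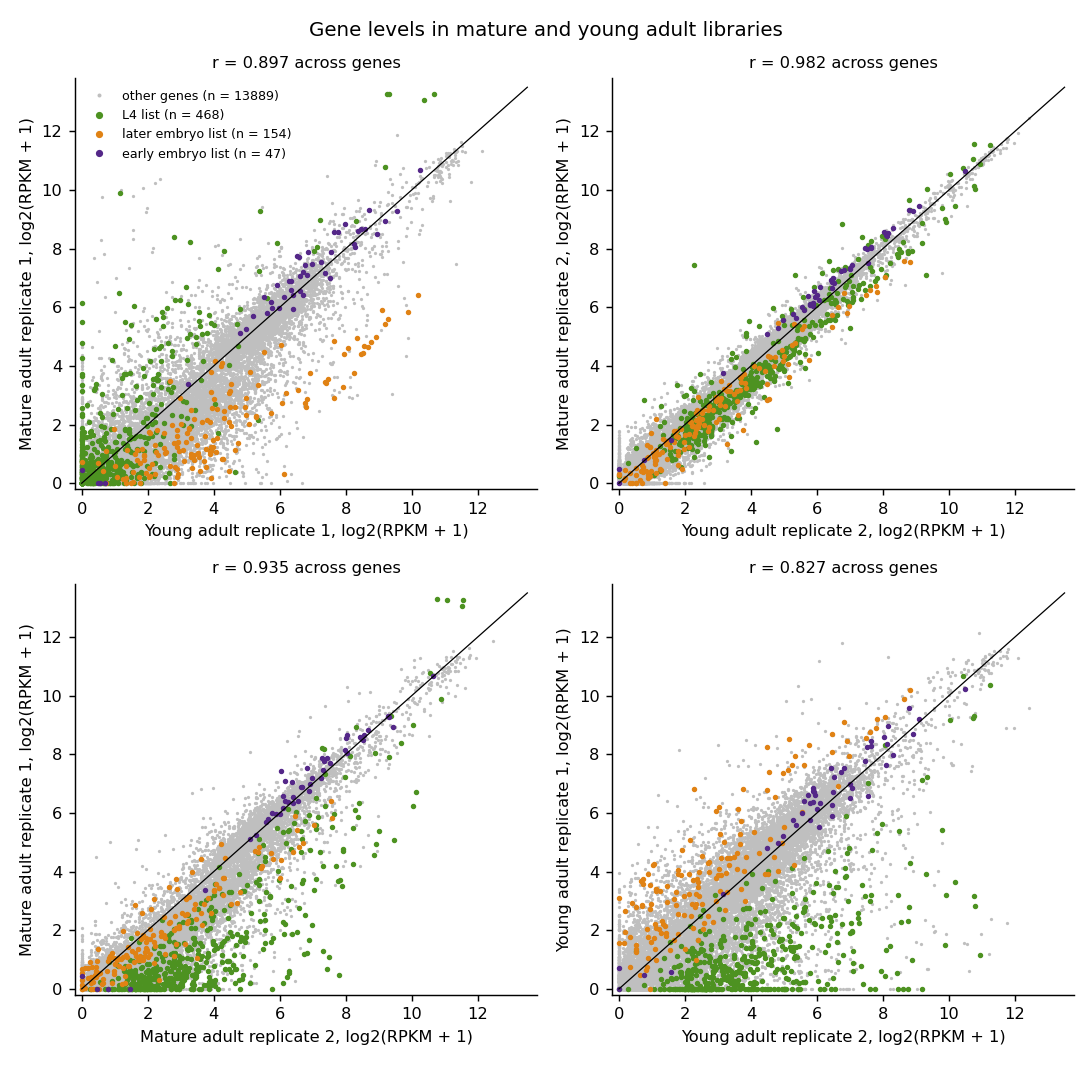
Level of each of the 14558 genes, as log2(RPKM + 1), in 4 pairs of libraries: mature against young adults for replicates 1 and 2 (top row), and the replicates of each stage against each other (bottom row). Coloured points are members of 3 gene lists, grey points the other genes, and the line marks equal levels. Points lie closest to the line between mature and young adult replicates 2 (r = 0.982) and spread most between the young adult replicates (r = 0.827), where L4 genes fall below the line and later embryo genes above it.

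No gene passed the test of mature against young adults. Limma called 0 of 14446 genes (0%) at a log2 difference of at least 1 in size with a Benjamini-Hochberg adjusted p under 0.05, and the lowest adjusted p was 1. At an unadjusted p under 0.05, 51 genes were higher in mature adults (0.353%) and 447 lower (3.09%), together 3.45% of genes, under the share of 0.05 that no difference at all would give. The median standard error of a gene's log2 difference was 0.63, and it was 0.80 among genes at a mean of 100 RPKM or more. Both rest on the spread of all 25 libraries in the fit, not on the 4 libraries alone. Without young adult replicate 2, limma called 94 genes, 59 higher and 35 lower in mature adults, and none of the other 3 libraries left out gave a call. A count of 0 at this spread does not show that the stages are alike, and the values below are descriptions of the 4 libraries unless a test is named.

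Of the genes tested, 924 (6.40%) had both mature adult libraries above both young adult libraries, and 2851 (19.7%) had both below. After quantile normalization, which gives each library the same distribution of values, the numbers were 1778 (12.3%) above and 1764 (12.2%) below, and the median log2 difference of all genes was 0.00 in place of -0.15. The excess of lower over higher genes was gone after that step, so counts over gene groups are given under both scalings and are read against 6.40% and 19.7% as deposited and against 12.3% and 12.2% after it. A gap of at least 1 on the log2 scale between the nearest libraries was present in 6 genes above (0.0415%) and 61 genes below (0.422%). The mean log2 difference was 1 or more in size for 334 genes higher (2.31%) and 1097 genes lower in mature adults (7.59%).

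The shares differed with the stage in which a gene was highest elsewhere in the series. Each gene was placed at the stage of its highest mean RPKM among the 19 staged groups other than young and mature adults. Of 2008 genes highest at 2 cells, 22.1% had both mature adult libraries above both young and 3.24% below, and of 93 genes highest at 2-4 cells 37.6% were above and 2.15% below. Among genes highest at later embryonic stages, from 4-8 cells on, more were below than above. Of genes highest at 64-128 cells 3.33% were above and 48.3% below, and at 100-150 cells 3.57% and 42.5%. Genes highest in L4 stood at 5% above and 4.83% below, and those highest in post-dauer mature adults at 1.65% and 41.7%. After quantile normalization genes highest at 2 cells stood at 24.1% above and 1.74% below, those highest at 64-128 cells at 3.33% and 19.2%, and those highest at 100-150 cells at 6.46% and 20.1%. Genes highest in L4 then stood at 20% above and 4.5% below, and those highest in post-dauer mature adults at 6.59% and 24.8%. The balance turned to more above than below for genes highest in males, at 9.93% and 6.90%, in post-dauer L3, at 9.26% and 7.44%, in post-dauer L4, at 15.5% and 9.13%, and by a small margin in L2, at 13.2% and 13.1%. Without that step, among the 924 genes above, 506 (54.8%) were highest between 2 and 16 cells, as were 18.4% of all genes tested, and 7.37% of the 2851 genes below.

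**Figure D2:**
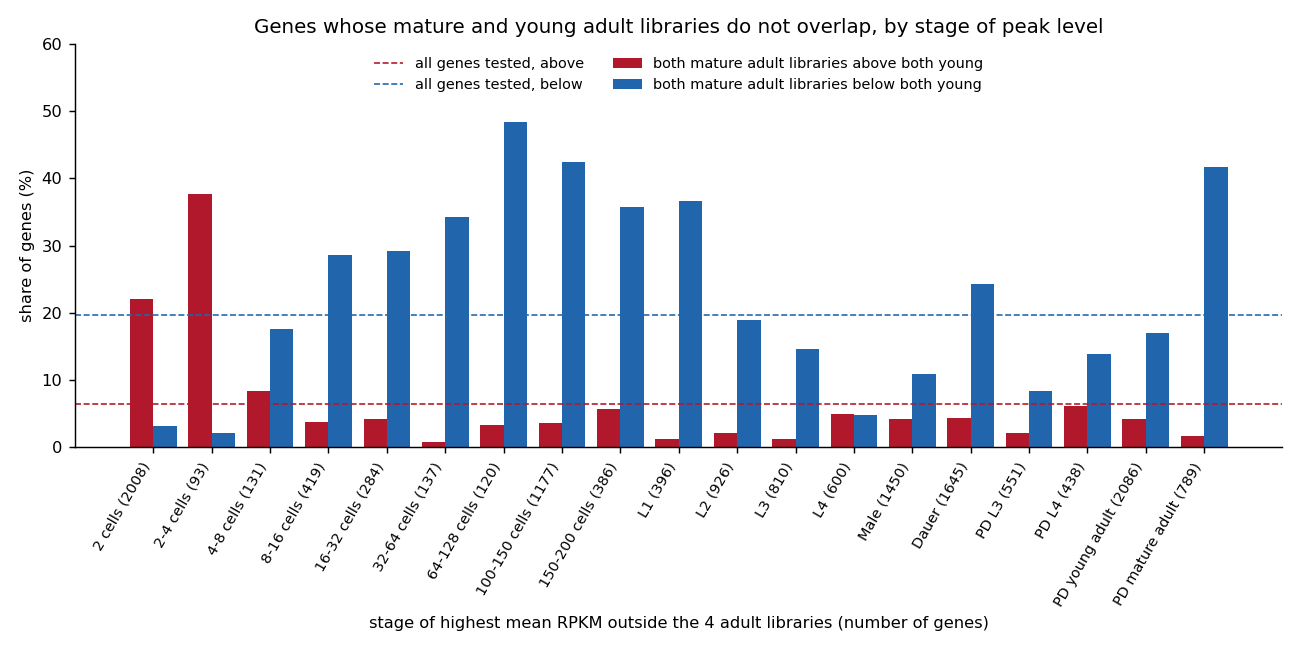
Share of genes, in percent, whose 2 mature adult libraries lie above (red) or below (blue) both young adult libraries, by the stage of highest mean RPKM outside these 4 libraries. PD is post-dauer, the number of genes at each stage is in brackets, and dashed lines mark the shares over all genes tested, 6.40% above and 19.7% below. Red bars exceed blue ones at 2 and 2-4 cells and, by less than 1 percentage point, in L4, and blue bars exceed red ones at each of the other stages; after quantile normalization, not drawn, this turned round in males, post-dauer L3, post-dauer L4 and L2.

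Early embryo genes were higher in mature than in young adults by a small margin. This list held 47 genes at 10 RPKM or more in 2-4 cell embryos and at least 2 higher there, on the log2 scale, than in 64-128 cell embryos, in L4 and in males. Its median level was 133 and 102 RPKM in mature adult replicates 1 and 2, against 97.9 and 84.8 RPKM in young adult replicates 1 and 2. The lowest mature adult library thus lay above the highest young adult library, by less than the young adult replicates differed. Both adult stages were well above L4, at 21.6 and 20.1 RPKM, and below the 2-4 cell embryos, at 214, 156 and 236 RPKM. Of the 47 genes, 22 (46.8%) had both mature libraries above both young libraries and 0 below, where all genes stood at 6.40% and 19.7%. On the log2 scale 41 of the 47 had the higher mean in mature adults, as did 4871 of the 14446 genes tested. The median log2 difference was 0.31, against -0.15 over all genes, and 0.39 after quantile normalization, when the counts were again 22 above and 0 below. It was positive in each of the 4 pairings of a mature with a young library, from 0.08 for mature replicate 2 over young replicate 1 to 0.48 for mature replicate 1 over young replicate 2. None of the 47 reached an unadjusted p under 0.05 in limma, where 0.353% of all genes were higher and 3.09% lower. The median log2 difference was 0.12 without young adult replicate 2.

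Later embryo genes were lower in mature adults. The 154 genes of this list were at 10 RPKM or more in 64-128 cell embryos and at least 2 higher there than in 2-4 cell embryos, L4 and males. Their median level was 1.89 and 3.09 RPKM in mature adult replicates 1 and 2, against 11.8 and 4.23 RPKM in young adult replicates 1 and 2. The groups did not overlap, and young adult replicate 1 stood apart from the other 3 libraries. L4 larvae had 8.39 and 7.91 RPKM and 64-128 cell embryos 72.6 and 113 RPKM. In 114 of the 154 genes (74.0%) both mature libraries were below both young libraries, and in 1 gene (0.649%) both were above. Over all genes these shares were 19.7% and 6.40%. On the log2 scale 148 of the 154 had the lower mean in mature adults, as did 9141 of the 14446 genes tested. The median log2 difference was -1.10, with -0.53 when young adult replicate 1 was left out and -1.73 when young adult replicate 2 was. Between mature and young adult replicates 2 alone it was -0.34. After quantile normalization the median was -0.63, with 48 genes (31.2%) below and 2 (1.30%) above, against 12.2% and 12.3% of all genes. At an unadjusted p under 0.05 in limma, 47 genes (30.5%) were lower and 0 higher, against 3.09% and 0.353% of all genes. After adjustment 0 passed.

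**Figure D3:**
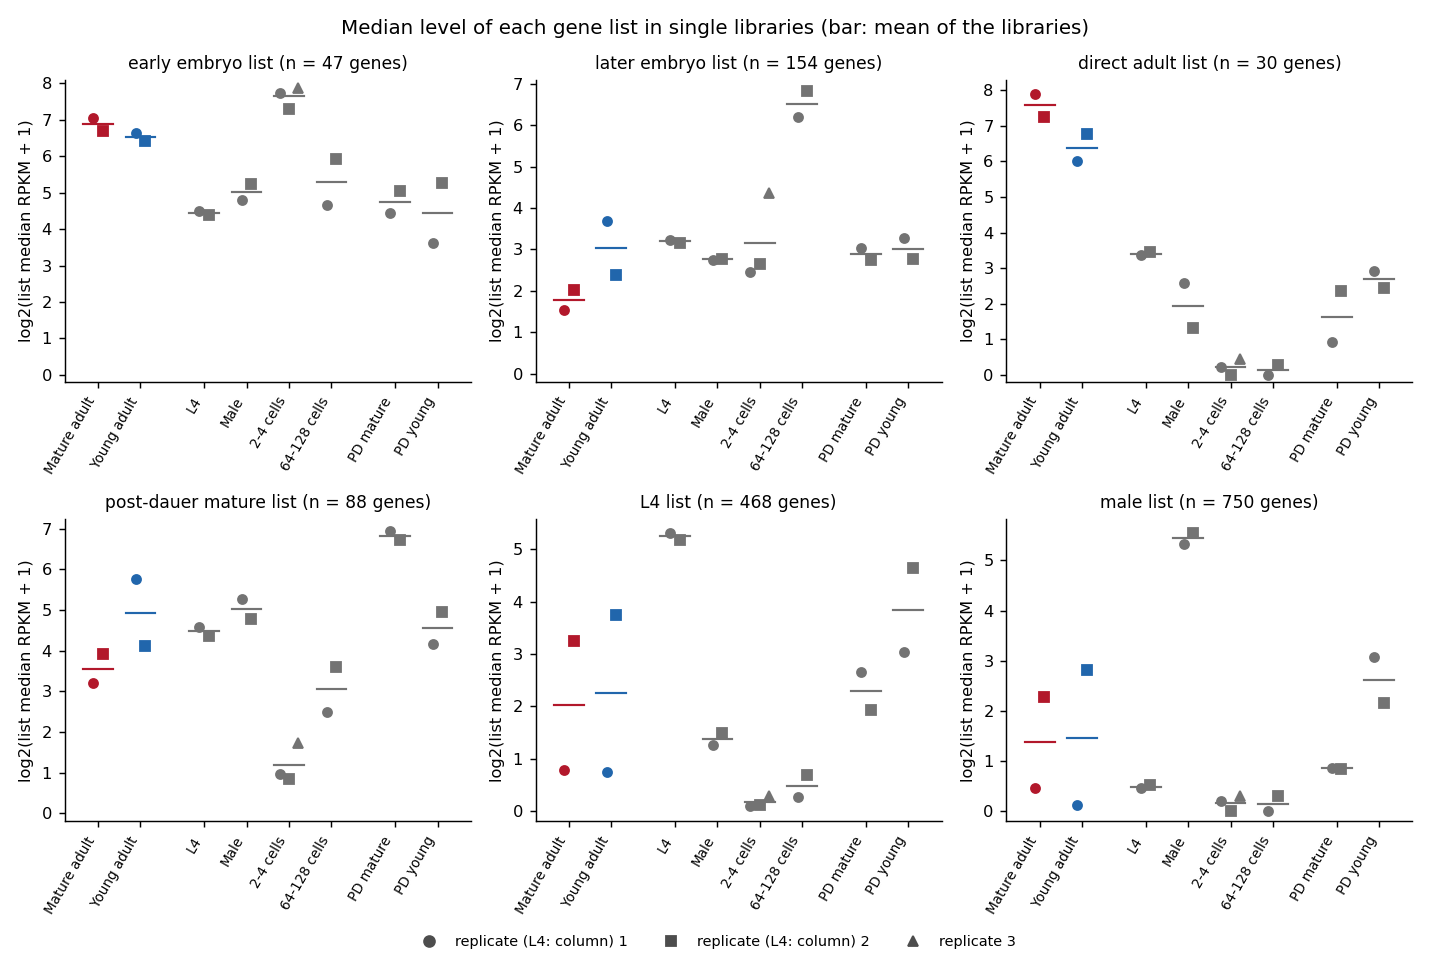
Median level of 6 gene lists in single libraries, as log2(median RPKM + 1), in mature adults (red), young adults (blue) and other stages (grey); PD is post-dauer. Bars are the means of the libraries of a group, and symbols mark the replicates, or the column digit in L4. Mature adults lie above young adults in the early embryo and direct adult lists and below them in the later embryo and post-dauer mature lists, while in the L4 and male lists the replicates of each stage lie far apart.

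L4 genes and male genes separated the replicates, not the stages. The L4 list held 468 genes at least 2 higher on the log2 scale in L4 than in L1, in 2-4 and 64-128 cell embryos and in males. Its median was 0.725 and 8.50 RPKM in mature adult replicates 1 and 2, against 0.675 and 12.5 RPKM in young adult replicates 1 and 2. Both replicates 1 were low and both replicates 2 high, and L4 itself was at 38.8 and 35.2 RPKM. Between the young adults 460 of the 468 genes were higher in replicate 2, and between the mature adults 458 were. The median log2 difference of the stages was -0.14, with -1.46 when young adult replicate 1 was left out and 1.16 when young adult replicate 2 was, so its sign rests on single libraries. Both mature libraries were above both young ones in 14 genes (2.99%) and below in 11 (2.35%), both under the shares of all genes. After quantile normalization the median was 0.12, with 34 genes (7.27%) above and 14 (2.99%) below, against 12.3% and 12.2% of all genes.

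The male list held 750 genes at least 2 higher in adult males than in L2, L3, 2-4 cell and 64-128 cell embryos. The males were hand-picked him-1(sy527) mutants, so sex and genotype are not separated in it. Its median was 0.39 and 3.86 RPKM in mature adult replicates 1 and 2, against 0.09 and 6.05 RPKM in young adult replicates 1 and 2. In males it was 39.1 and 45.7 RPKM. Replicates 2 were again the higher ones in both stages. The 187 members that were at 1 RPKM or more in L4 had medians of 3.19 and 15.4 RPKM in mature adults and 1.26 and 19.2 RPKM in young adults. The 563 members under 1 RPKM in L4 had 0.26 and 3.27 RPKM in mature adults and 0 and 4.88 RPKM in young adults. The median log2 difference of the list was -0.15, with -1.38 when young adult replicate 1 was left out and 0.98 when young adult replicate 2 was. Both mature libraries were above both young ones in 9 genes (1.2%) and below in 44 (5.87%), again under the shares of all genes. After quantile normalization the median was 0.11, with 32 genes (4.27%) above and 40 (5.33%) below, against 12.3% and 12.2% of all genes. Silent genes were the 3194 at a median under 0.5 RPKM over all libraries other than the 4, so they can be high in a few. They had medians of 0.05 and 0.31 RPKM in mature adults and 0 and 0.42 RPKM in young adults. They followed the same order of libraries at much lower levels. Silent genes, 3194 of all 14558, include 445 of the 750 male genes (59.3%) and 393 of the 563 under 1 RPKM in L4 (69.8%). They also include 81 of the 468 L4 genes (17.3%). The part that this shift has in the L4 and male lists was not tested.

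A group of 30 genes was higher in adults of direct growth than in any of the other stages. This list was added after values were seen: its genes were at 10 RPKM or more in the means of both mature and young adults and at least 2 higher on the log2 scale in both than in each of the 19 other stages, so its levels against those stages are a description. Its median was 238 and 151 RPKM in mature adult replicates 1 and 2, against 62.9 and 109 RPKM in young adult replicates 1 and 2. The groups did not overlap, and the order of the replicates differed between the stages. The list made up 8.98% and 3.24% of the RPKM sum in mature adults and 1.38% and 2.57% in young adults. In 19 of 30 genes (63.3%) both mature libraries were above both young ones, in 0 below, against 6.40% and 19.7% of all genes. On the log2 scale 29 had the higher mean in mature adults, as did 4871 of the 14446 genes tested. After quantile normalization 18 genes (60%) were above and 0 below, against 12.3% and 12.2% of all genes. The 4 libraries helped to choose the list, so these counts describe them and test nothing. The median log2 difference was 1.06, and 1.14 after quantile normalization. It was 0.33 between mature and young adult replicates 2 and 1.88 between mature and young adult replicates 1.

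The list was not high in every adult. Its median was 0.905 and 4.13 RPKM in post-dauer mature adults, 6.60 and 4.47 RPKM in post-dauer young adults and 5.01 and 1.5 RPKM in males. Mixed worms, 2 libraries with no single stage, had medians of 140 and 192 RPKM. In embryos of 2-4 cells the medians were between 0 and 0.38 RPKM. The list shared 9 genes (30% of it) with the L4 list, 3 (10%) with the male list and 0 with either embryo list. It shared 14 (46.7%) with the silent genes.

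The 4 genes named next belong to this list and were the most abundant of mature adult replicate 1, each above 8000 RPKM, and are named because their values stood out. Oti_g13486 was at 9926 and 1720 RPKM in mature adult replicates 1 and 2, against 1620 and 1358 RPKM in young adult replicates 1 and 2. Oti_g13559 was at 9851 and 2143 RPKM in mature adults, against 605 and 1709 RPKM in young adults. Oti_g12875 was at 9840 and 3026 RPKM in mature adults and 639 and 1738 RPKM in young adults. In each of the 3 both mature libraries were above both young ones, and mature replicate 1 stood far above the rest. Oti_g07521 was at 8551 and 2956 RPKM in mature adults, against 1326 and 2418 RPKM in young adults, with the same order. In post-dauer adults the highest library of these 4 genes was at 36.6, 19.2, 15.8 and 21.9 RPKM in the order given, in males none exceeded 8.42 RPKM, and in staged embryos none exceeded 3.97 RPKM. They were not low in every stage: the highest L4 library was at 65.0, 71.1, 109 and 112 RPKM in the same order, and the highest dauer library at 309, 73.9, 57.8 and 251 RPKM. The 4 genes lay between 8551 and 9926 RPKM in mature adult replicate 1 and between 605 and 1620 RPKM in young adult replicate 1. Reads of near-identical genes cannot be told apart in these values, and whether these genes share reads was not tested.

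**Figure D4:**
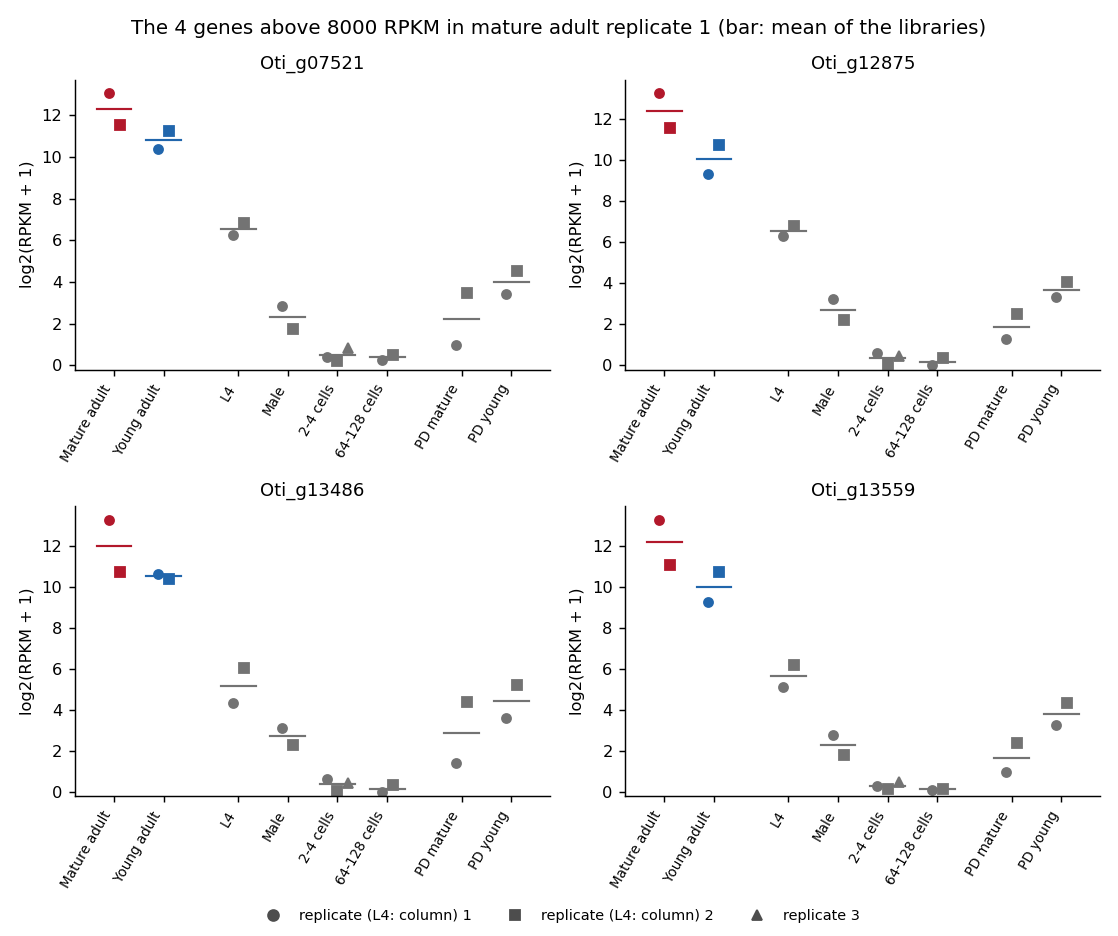
Level of the 4 genes above 8000 RPKM in mature adult replicate 1, as log2(RPKM + 1), in mature adults (red), young adults (blue) and other stages (grey); PD is post-dauer. Bars are the means of the libraries and symbols mark replicates, or the column digit in L4. All 4 genes are at 605 RPKM or more in each of the 4 directly grown adult libraries and at 36.6 RPKM or less in post-dauer adults.

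Some genes of the direct adult list differed more between the young adult replicates than between the stages. Oti_g00227 was at 1213 and 3140 RPKM in mature adult replicates 1 and 2, against 3.70 and 3430 RPKM in young adult replicates 1 and 2. Oti_g08944 was at 317 and 704 RPKM in mature adults, against 1.92 and 572 RPKM in young adults, and Oti_g00225 at 222 and 592 RPKM in mature adults, against 0.59 and 646 RPKM in young adults. All 3 were nearly missing from young adult replicate 1 alone, and they too are named for their values. Oti_g00227 and Oti_g00225 belong to the male list, with highest male levels of 543 and 102 RPKM. On the log2 scale only Oti_g12515 of the 30 had the lower mean in mature adults. It was at 101 and 9.11 RPKM in mature adults and 48.2 and 27.55 RPKM in young adults. Oti_g01288 had the lower mean in mature adults in plain RPKM but not on the log2 scale. It was at 32.7 and 24.8 RPKM in mature adults and 64.8 and 11.1 RPKM in young adults.

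A list of genes chosen as higher in mature than in young adults after dauer was lower in mature adults of direct growth. Of all genes tested, 1664 had both post-dauer mature libraries above both post-dauer young ones. Among these, both directly grown mature libraries were below both young ones in 642 and above in 43. Over all 14446 genes tested those counts were 2851 and 924. The post-dauer mature list took genes at a post-dauer mature mean of at least 10 RPKM. It held 88 genes whose lowest post-dauer mature library was at least 1 above the highest post-dauer young library on the log2 scale. Its median was 8.19 and 14.2 RPKM in mature adult replicates 1 and 2, against 53.1 and 16.3 RPKM in young adult replicates 1 and 2. The groups did not overlap, though mature and young adult replicates 2 were close. In the post-dauer libraries that chose the list it was 121 and 104 RPKM in mature adults and 16.8 and 30.1 RPKM in young adults. In dauer larvae it was 70.9 and 67.0 RPKM. Post-dauer young adult replicate 1, which helped to choose the list, correlated with replicate 2 of its stage at only r = 0.596. In 58 of the 88 genes (65.9%) both directly grown mature libraries were below both young ones, and in 0 above. Over all genes these shares were 19.7% and 6.40%. On the log2 scale 87 of the 88 had the lower mean in mature adults, as did 9141 of the 14446 genes tested. The median log2 difference was -1.11, but -0.54 without young adult replicate 1 and -0.17 between mature and young adult replicates 2. After quantile normalization it was -0.82, with 41 genes (46.6%) below and 1 (1.14%) above, against 12.2% and 12.3% of all genes. At an unadjusted p under 0.05 in limma, 24 (27.3%) were lower and 0 higher, against 3.09% and 0.353% of all genes.

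The same comparison after dauer gave other values for the other lists. Limma called 0 of 14446 genes (0%) between post-dauer mature and post-dauer young adults, with 458 higher and 1506 lower at an unadjusted p under 0.05 and a lowest Benjamini-Hochberg adjusted p of 0.274. Post-dauer young adult replicate 1 stood apart, with a median of 5.32 RPKM in the silent genes, so each value is given again against post-dauer young adult replicate 2 alone. The early embryo list had a median log2 difference of 0.05 after dauer and -0.51 against replicate 2, beside 0.31 in direct growth. The later embryo list had -0.08 and -0.05, beside -1.10 in direct growth. The L4 list had -1.46 and -2.32, the male list -1.64 and -1.22, and the direct adult list -1.26 and -0.91. The direct adult list was chosen to be lower in post-dauer adults than in both directly grown stages. Its medians there were between 0.905 and 6.60 RPKM, so its post-dauer differences are of low values that the choice in part fixed. The difference of the 2 effects was tested gene by gene and not by list, so the test does not decide whether these lists differ. In limma 1113 genes had an unadjusted p under 0.05 for it, and the lowest Benjamini-Hochberg adjusted p was 0.585. Limma called 0 of 14446 genes for this difference. That count was 132 without young adult replicate 2 and 0 without post-dauer young adult replicate 1.

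Among genes at a mean of at least 10 RPKM in the higher stage and with no overlap of the stages, 676 were higher and 1093 lower in mature adults, and the 2 of widest gap in each direction are given. Limma called none of the 4 at an adjusted p under 0.05. Oti_g10353 was at 89.4 and 136 RPKM in mature adult replicates 1 and 2, against 1.17 and 39.6 RPKM in young adult replicates 1 and 2, means of 113 ± 33.1 and 20.4 ± 27.2 RPKM (SD, n = 2 each). It belongs to the L4 list, was at 66.2 RPKM in both L4 libraries, and was the more abundant in mature adults by a log2 difference of 3.57 ± 1.5 (SE) with a limma Benjamini-Hochberg adjusted p of 1. The young adult replicates were far apart, and leaving out replicate 1 gave a log2 difference of 1.46, leaving out replicate 2 one of 5.68. Oti_g08789 was at 24.0 and 24.8 RPKM in mature adults, against 9.91 and 11.7 RPKM in young adults, and its replicates were close in both stages. Its log2 difference was 1.11 ± 0.92 (SE, limma Benjamini-Hochberg adjusted p of 1), and its highest stage by mean was 2 cells, a single library at 62.2 RPKM, while single post-dauer libraries were higher, at 72.0 RPKM in post-dauer mature and 72.5 RPKM in post-dauer young adult replicate 1.

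Oti_g06678 was listed at 0 in both mature adult libraries, against 21.3 and 4.96 RPKM in young adult replicates 1 and 2, so no fold is given. It was at 28.1 and 8.28 RPKM in post-dauer mature adults and 40.4 and 3.61 RPKM in post-dauer young adults. Its adjusted p in limma was 1 with the pseudocount of 1 and 0.0492 with a pseudocount of 0.1 (Benjamini-Hochberg), the only call under that setting. Oti_g12479 was at 0.35 and 1.5 RPKM in mature adults, against 21.0 and 8.77 RPKM in young adults, a log2 difference of -3.0 ± 1.0 (SE, limma Benjamini-Hochberg adjusted p of 1). It belongs to the later embryo list and was at 1485 RPKM in the single library of 100-150 cells. In 16-32 cell embryos it was at 110, 1922 and 64.0 RPKM in replicates 1, 2 and 3. Both adult stages thus held it at a small share of its highest embryonic levels.

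**Figure D5:**
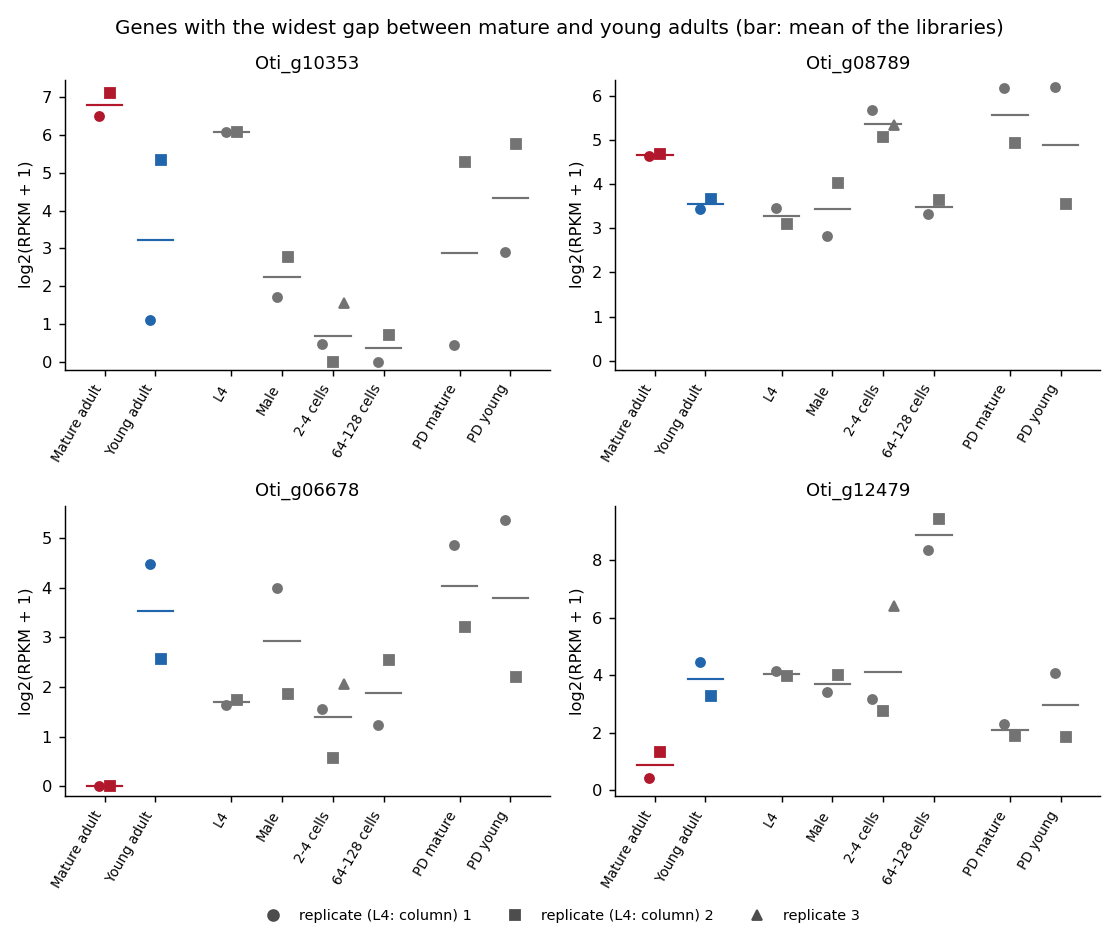
Level of the 2 genes with the widest gap in each direction, as log2(RPKM + 1), in mature adults (red), young adults (blue) and other stages (grey); PD is post-dauer. Bars are the means of the libraries and symbols mark replicates, or the column digit in L4. Both mature adult libraries lie above both young ones for Oti_g10353 and Oti_g08789 and below them for Oti_g06678, listed at 0 in mature adults, and Oti_g12479.

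Of the 61 genes with a gap of at least 1 below young adults, 24 were under 1 RPKM in both mature libraries. Among them 10 were listed at 0 in both, and 16 of the 61 belonged to the later embryo list. Over all 14446 genes tested the same counts were 3445, 883 and 154. Genes of middle abundance differed most between replicates. At means of 1 to 7 RPKM the median gene differed by 0.83 on the log2 scale between the mature adult replicates, by 0.90 between the young adult replicates and by 0.33 between mature and young adult replicates 2. At 127 RPKM and above these medians were 0.37, 0.65 and 0.18.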

How the data were processed

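Total RNA of whole worms was depleted of ribosomal RNA with a RiboCop kit and made into libraries with a CORALL total RNA kit, per the labels' protocols. The authors deposited RPKM values in 1 table of 14558 gene IDs by 48 libraries. Column sums differ and values are not whole, which is how the unit was read. The tools named in the submitters' processing notes are HTSeq 2.0.2, StringTie 2.2.0, STAR 2.7.10 and Bowtie2 2.4.2, without roles. The genome build is not given in the sources used here. Reads of near-identical or overlapping genes cannot be told apart in such values.

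Each library's group is its labelled stage, and since the replicate digits of the L2, L3 and L4 columns are not those of the titles, a digit there only names a column. Tests used limma 3.58.1 (R 4.3.3) on log2(RPKM + 1), with robust empirical Bayes moderation and a trend of the variance with the mean. The fit held 12 groups of larvae, dauers and adults, 25 libraries that share 1 estimate of the spread, since 2 libraries a group give little on their own. Genes at 1 RPKM or more in 2 or more of these libraries were tested, 14446 in all, and p-values were adjusted over all of them (Benjamini-Hochberg). A log2 difference on this scale understates the difference of low genes. A call needed a log2 difference of at least 1 in size at an adjusted p under 0.05. The difference between the effects in direct and post-dauer worms was a contrast in the same fit.

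Stage lists used mean RPKM per stage, a minimum of 10 RPKM and a difference of at least 2 on the log2(mean RPKM + 1) scale; a broad list held genes at 10 RPKM or more in every library other than the 4, and a dauer list genes higher in dauer than in L1, L3 and L4. All members of each list were tested, apart from the silent genes, of which 3085 of 3194 were. Named genes were those whose stages do not overlap, with a mean of at least 10 RPKM in the higher stage, the 2 with the widest gap in each direction. The lists, the rule and the comparison itself were chosen with earlier results of these data known, so counts over lists carry no p. Relative depth was read from the steps of 1 read in values of 0.15 to 3 RPKM by 2 routes, which differed by at most 0.064%. Alternatives were quantile normalization, a pseudocount of 0.1, other filters, no trend, other libraries in the fit, a replicate block, list thresholds of 3 and leaving out each library. The fits were tested on simulated data. Tables were handled in Python 3.11.15 with pandas 2.3.3.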

Additional observations from a re-analysis of the deposited data

How the results depend on the processing

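The count of genes called between mature and young adults was 0 under quantile normalization, without a filter, with a filter on the 4 libraries (11053 genes tested), without a trend, with only the 4 libraries in the fit and without the 5 dauer and post-dauer libraries whose silent genes were raised. It was 1 with a pseudocount of 0.1. Leaving out 1 library gave counts from 0 to 94, the 94 without young adult replicate 2, and for the difference between direct and post-dauer worms from 0 to 132, the 132 also without young adult replicate 2; the cause was not tested, and the single library left in a stage is then taken to vary as other groups do. Genes at an unadjusted p under 0.05 numbered 166 higher and 122 lower in mature adults after quantile normalization, 9 and 80 with only the 4 libraries, and between 2 and 630 higher and 40 and 969 lower with 1 library left out.

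Same-numbered mature and young adult libraries deviated together, with a correlation of 0.561, but 2 pairs do not establish a pairing. With a replicate block in the fit, limma called 0 genes, with 64 higher and 246 lower at an unadjusted p under 0.05. The 4 genes of widest gap, 2 in each direction, each had a limma Benjamini-Hochberg adjusted p of 0.875.

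Counts of list members whose stages do not overlap grew with a library left out by construction, since fewer libraries have to be apart: over all genes the shares were then 13.2% to 28.3% above and 24.0% to 50.8% below. The early embryo list then had 23 to 41 genes above and 0 to 10 below, the later embryo list 3 to 7 and 119 to 139, the post-dauer mature list 1 to 5 and 60 to 81, and the direct adult list 20 to 25 and 0 to 3. Such counts of the L4 list ran from 14 to 258 above and from 11 to 379 below, and those of the male list from 21 to 383 and from 54 to 599. With a list threshold of 3 the later embryo list had 39 genes and a median log2 difference of -1.84, and the early embryo list had 0 genes. The number of libraries limits every value here.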

Other observations

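As a list median, genes in use at every other stage were at like levels in mature and young adults, though single genes differed. The broad list of 1466 genes, at 10 RPKM or more in each of the other libraries, had medians of 61.4 and 62.2 RPKM in mature adult replicates 1 and 2, against 70.1 and 60.8 RPKM in young adult replicates 1 and 2. Its median log2 difference was -0.03, or 0.02 after quantile normalization. Between the nearest libraries of the stages, a gap of at least 1 on the log2 scale was present in 0 genes above and 10 below. These counts over all 14446 genes tested were 6 and 61. Both mature libraries were above both young ones in 154 genes (10.5%) and below in 210 (14.3%), against 6.40% and 19.7% of all genes. After quantile normalization the balance turned round, with 209 (14.3%) above and 148 (10.1%) below, against 12.3% and 12.2% of all genes. At an unadjusted p under 0.05 in limma 28 genes (1.91%) were lower and 0 higher, against 3.09% and 0.353% of all genes. The list made up 54.8% and 52.4% of the RPKM sum in mature adults and 60.4% and 51.3% in young adults.

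The median dauer gene was scarce in all 4 libraries, though the list also holds Oti_g13486, the most abundant gene of mature adult replicate 1. The 166 genes of the list had medians of 0.26 and 0.515 RPKM in mature adults, against 1.00 and 0.885 RPKM in young adults, and 25.4 and 15.7 RPKM in dauer larvae. In 50 genes (30.1%) both mature libraries were below both young ones and in 5 (3.01%) above, against 19.7% and 6.40% of all genes. After quantile normalization 41 (24.7%) were below and 13 (7.83%) above, against 12.2% and 12.3% of all genes. The list made up 2.32% and 0.484% of the RPKM sum in mature adults and 0.806% and 0.433% in young adults.

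The most abundant gene differed between the replicates of each stage. Oti_g06423 led mature adult replicate 2 and young adult replicate 2, at 5650 and 5444 RPKM, and was at 3723 RPKM in mature adult replicate 1 and 757 RPKM in young adult replicate 1. Young adult replicate 1 was led by Oti_g11153, at 4516 RPKM, which was at 2578 and 2088 RPKM in mature adults and 1902 RPKM in young adult replicate 2. These genes are named for their values.

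Each library was set beside the other 47 by its correlation across genes. Mature adult replicate 1 was closest to mixed worms replicate 2 (r = 0.941) and then to mature adult replicate 2 (0.935). Mature adult replicate 2 and young adult replicate 2 were each closest to the other (0.982). Young adult replicate 1 was closest to mature adult replicate 1 (0.897).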
